A study of Danio rerio with 14 samples.

Results

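The change of each transcript per day of regrowth was followed in the distal tip of zebrafish (Danio rerio) fin rays, from the first regrowth time to the last. The 11 libraries taken at 3, 7, 10 and 14 days post amputation (dpa) entered this trend, of 14 libraries in all, and the 3 libraries of 0 dpa, taken on the day of amputation, were left out of it. The times of 3, 7 and 10 dpa had 3 libraries apiece, and 14 dpa had 2. The labels name the first regrowth time 3 dpa and the design text 3.5 days. It is called 3 dpa here and stands at day 3.5 in the fit. All fish carried the label WT, with no transgene, drug or age given, so no treatment separates the groups other than days since amputation. Each library pooled strips of about 250 µm from 10 animals, and at 14 dpa only 2 pools gave RNA good enough to sequence. The strip was always the outermost part of the ray, so the tissue inside it may differ in position and maturity between days, which cannot be told apart from time.

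A cut fin ray regrows from a wound epidermis and, beneath it, a blastema, a mass of dividing cells from connective tissue and bone. Fgf, Wnt, Hedgehog, Bmp and retinoic acid signals pattern this outgrowth, and it slows as the fin nears its former size. Fibroblasts at the tip lay down actinotrichia, stiff unmineralised fibrils of collagen and actinodin proteins, and osteoblasts behind them lay down the bony ray segments. The study as titled concerns Erk gradients and the memory of skeletal size. Erk is a kinase that Fgf receptors switch on.

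Values were in TPM, a transcript abundance corrected for transcript length that sums to the same total in each library, so read depth is unknown. The slope is the change of log2(TPM + 1) per day along a straight line through the 11 libraries. On this scale 1 unit is a 2-fold change, and changes of low genes are understated. A gene was tested where 2 or more of the 11 libraries reached 1 TPM, which kept 11232 of 14836. Slopes are given ± standard error, and a gene is said to have risen or fallen where limma's moderated test gave a Benjamini-Hochberg adjusted p under 0.05 over all genes tested. Correlations across genes between libraries of the same time ran from 0.952 to 0.990, and no pair was identical. Some libraries stood apart. The immediate early gene fosb was at 1702 TPM in 7 dpa replicate 2 and at 886 and 1343 TPM in 10 dpa replicates 2 and 3, against 23.05 to 144 TPM in the other 8. Counts of called list members that move by more than 1.5 times without these 3 libraries are given both ways.

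Over the 11 libraries 1943 genes rose, 17.3% of those tested, and 1515 fell, 13.5%. The remaining 7774 did not pass the threshold. Counts for gene lists below are to be read beside these shares, 17.3% risen and 13.5% fallen. The lists and their members were chosen with earlier results of these data known. A list share above that of all genes is thus a description and no separate support. The median gene had a slope of 0.0018 per day, or 0.019 from the first to the last time, so all genes together shifted little on this scale. Among genes that rose the median slope was 0.116 per day, and among those that fell it was -0.107. Slopes of 0.3 per day or more were found for 35 risen genes and of -0.3 or less for 39 fallen ones. Libraries of 3 and 14 dpa did not overlap for 3910 genes that were higher at 14 dpa (34.8%) and 3175 that were lower (28.3%). Without the 3 high-fosb libraries 2307 genes rose (20.8%) and 1751 fell (15.8%), and these included 1879 and 1443 of the original calls.

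Courses were compared with a straight line. The F test for departure from a straight line passed for 742 of all genes (6.61%), of which 288 also had a slope and 454 did not. Of the 3458 genes with a slope, 3170 did not pass it, which does not show that their course was straight. The 4 time means moved one way at every step for 1297 of the risen genes and for 1153 of the fallen ones. Over all genes tested, they rose at every step for 14.98% and fell at every step for 13.57%. Risen and fallen genes were picked by slope on the same values, so these counts are no separate support for a steady course. A departure was found for 208 of the risen and 80 of the fallen genes. Among risen genes curvature was negative, a rise that slowed or turned back, for 251 and positive for 69. Among fallen genes it was positive, a fall that slowed or turned back, for 121. It was negative, a fall that quickened or followed a rise, for 58. Over all genes, curvature was positive for 6.92% and negative for 6.01%.

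The fit was repeated with each end time left out. Fewer libraries and a shorter span also lose calls. The counts that follow therefore do not measure how much of the trend lay in the first interval. Without the 3 dpa libraries 652 genes rose (5.88%) and 638 fell (5.75%), over fewer libraries and a shorter span. They included 551 of the risen and 520 of the fallen genes, and none passed in the opposite direction. Without the 14 dpa libraries 1617 rose (14.5%) and 1511 fell (13.5%), including 1200 and 907 of the original calls. The change per day from 3 to 7 dpa and that from 10 to 14 dpa share no library. Across all genes they correlated at -0.016 (Pearson, a description over genes, which are not replicates), and their signs matched for 48.0% of genes.

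The 15 largest falls that moved one way at every step ran from frem3 (-0.534 ± 0.066 per day), a Fraser complex protein that anchors epidermis to dermis, through vcana, scpp7, pcp4a, frem2a, and2, clu, scpp5, adam8a, cygb1, gfra3, hrh3, enam and nrsn1 to and1 (-0.358 ± 0.021). Their adjusted p-values ran from 8.18e-08 to 0.0022. Leaving out 3 dpa, 11 of the 15 still passed, and adam8a (-0.20, adjusted p = 0.063), gfra3 (-0.17, 0.059), hrh3 (-0.071, 0.42) and nrsn1 (-0.11, 0.12) did not.

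**Figure D1:**
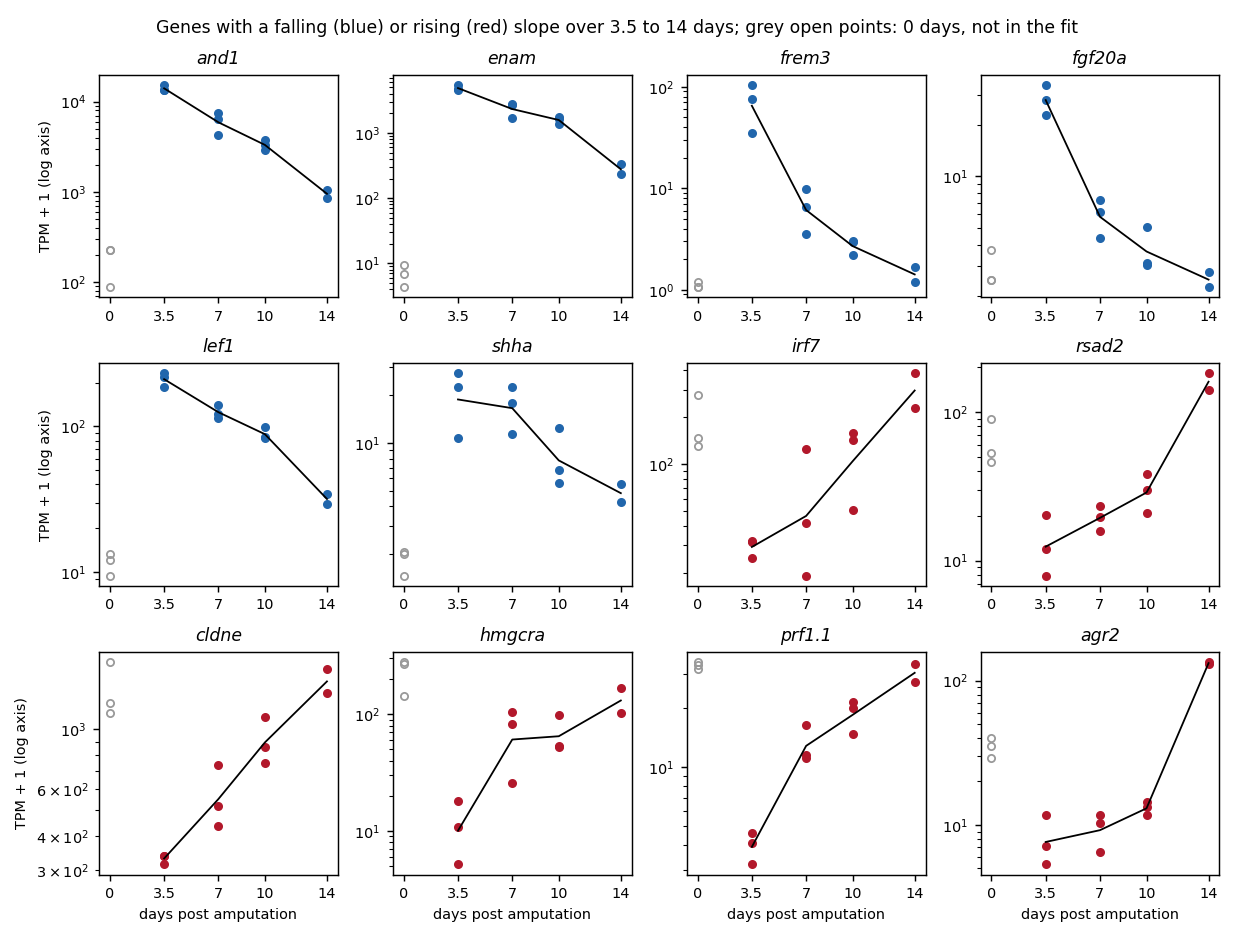
TPM + 1 on a log axis against days post amputation for 6 genes that fell (blue) and 6 that rose (red); each point is 1 library, black lines join the means of log2(TPM + 1) and open grey points are 0 dpa, which had no part in the slope. The falls of and1, enam and lef1 continued to 14 dpa, frem3 and fgf20a fell mostly before 7 dpa, and agr2 was high at 14 dpa.

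The means of the actinodins and1 and and2, structural proteins of the actinotrichia, fell at every step. At 3 dpa and2 was at 5300, 4787 and 4815 TPM, at 7 dpa at 2030, 2336 and 1409, at 10 dpa at 722, 832 and 936, and at 14 dpa at 200 and 214. No library of a later time reached the level of any library of an earlier time. The slope of -0.430 ± 0.019 per day (adjusted p = 8.18e-08) is a 2-fold fall every 2.33 days, with rates of -0.40, -0.40 and -0.50 per day over the 3 intervals. For and1 the values were 15444, 13439 and 13368 TPM at 3 dpa, 6485, 7429 and 4280 at 7 dpa, 2922, 3281 and 3807 at 10 dpa, and 865 and 1049 at 14 dpa, a 2-fold fall every 2.79 days. Both slopes passed the threshold without the 3 dpa libraries (-0.45 and -0.37). At 0 dpa the mean of and2 was 23.9 TPM, so its level at 14 dpa was still above that before regrowth. The third actinodin measured, and3, had a different course. It was at 5.19 to 8.65 TPM at 3 dpa, 16.2 to 61.4 at 7 dpa, 13.2 to 41.3 at 10 dpa, and 2.23 and 5.00 at 14 dpa. Its slope did not pass (-0.042 ± 0.099, adjusted p = 0.79), its departure from a line did (adjusted p = 0.012), and without the 14 dpa libraries it had a slope of 0.29 (adjusted p = 0.038). Reads are divided among similar actinodin genes by estimation, so levels within the family are uncertain.

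Of 9 tested genes of actinotrichia and their collagens, 7 fell and 1 rose, with a median slope of -0.16 per day. The chain col1a1a of type I collagen, the main collagen of bone and dermis, was at 54655 to 72157 TPM at 3 dpa and at 6980 and 8794 TPM at 14 dpa, with a slope of -0.279 ± 0.024 (adjusted p = 8.71e-06). The other type I chains col1a1b and col1a2 fell by less per day (-0.16 and -0.15), and col1a2 did not pass without the 14 dpa libraries (-0.061, adjusted p = 0.096). The type II collagen gene col2a1b fell (-0.12, adjusted p = 0.040), a call lost without 14 dpa replicate 1 (-0.072, 0.21), replicate 2 (-0.093, 0.17), 3 dpa replicate 1 (-0.12, 0.075) or either of 7 and 10 dpa replicate 1. The riser was hsd17b12a, a lipid enzyme, at 0.14 per day, which did not pass when 3 dpa replicate 1 (0.12, adjusted p = 0.069) or either 14 dpa library (0.12 and 0.13) was left out. At 3 dpa the list summed to 100214 to 125664 TPM, of which col1a1a alone gave 54655 to 72157. As col1a1a is also a collagen of bone and dermis, the sum is not one of actinotrichia alone. The summed level of the list was 10.0 to 12.6% of all TPM at 3 dpa and 1.68 to 2.08% at 14 dpa. Because TPM sums to a fixed total, a fall of that size adds to the share of other genes.

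Secretory calcium-binding phosphoproteins (Scpp proteins), the family of enamel and bone matrix proteins, parted into falling, bent and late genes. Enamelin, encoded by enam, was at 4497, 4694 and 5519 TPM at 3 dpa, 2642, 2774 and 1725 at 7 dpa, 1357, 1642 and 1771 at 10 dpa, and 233 and 328 at 14 dpa. Its libraries did not overlap between 7 and 14 dpa or between 3 and 7 dpa. The slope was -0.366 ± 0.034 (adjusted p = 1.32e-05), with a departure from the line (adjusted p = 0.031) and its steepest rate, -0.63 per day, between 10 and 14 dpa. Transcripts of scpp7 fell from 75.5 to 172 TPM at 3 dpa to 1.66 and 2.12 at 14 dpa (-0.502 ± 0.034), and scpp5 from 15.8 to 20.6 TPM to 0.14 and 0.20 (-0.382 ± 0.042). The ameloblastin gene ambn (-0.20) and the bone matrix gene sparc (-0.16) also fell. For ambn the fall came late, and without the 14 dpa libraries the slope was -0.063 (adjusted p = 0.30).

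The gene scpp8 was the late member. It was at 0.77 to 5.02 TPM in the 3 libraries of 3 dpa, at 0.67 to 1.85 at 7 dpa, at 1.01 to 2.48 at 10 dpa, and at 119 and 79.8 TPM at 14 dpa. Both 14 dpa libraries lay far above all 9 others, and a straight line describes it poorly (departure, adjusted p = 0.0015). Its slope of 0.388 ± 0.115 (adjusted p = 0.021) was lost without 14 dpa replicate 1 (0.25, 0.12) or replicate 2 (0.29, 0.12), and was -0.060 without both. The osteopontin gene spp1 and scpp1 rose and came back, and neither slope passed. For spp1 the means were 68.7, 188, 198 and 102 TPM from 3 to 14 dpa (departure, adjusted p = 0.0014). In all, 5 of 10 tested members fell, 2 rose (scpp8 and scpp9, the latter at 0.055 per day and under 2 TPM in every library) and 6 departed from a line.

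Enzymes and chaperones that modify, fold, export or crosslink collagen made up another list. Of 27 tested members 20 fell and none rose, against 13.5% and 17.3% of all genes, with a median slope of -0.18 per day, and 15 fell without the 3 dpa libraries. The lysyl oxidase gene loxl2b, whose product crosslinks collagen, was at 601, 582 and 486 TPM at 3 dpa, 313, 249 and 312 at 7 dpa, 212, 199 and 190 at 10 dpa, and 90.6 and 108 at 14 dpa. No libraries of neighbouring times overlapped, and the slope was -0.230 ± 0.015 (adjusted p = 7.51e-07). The collagen chaperone gene serpinh1a (-0.28), the lysyl hydroxylase gene plod1a (-0.28), which acts on collagen chains, and the prolyl isomerase gene fkbp10b (-0.26) fell at like rates. The paralog serpinh1b fell too (-0.27, adjusted p = 0.0037), but was at 174 TPM in 7 dpa replicate 2 against 51.6 and 36.6 in the other 2, and did not pass without the 3 dpa libraries (-0.31, 0.093).

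Other secreted matrix genes fell in large part: 18 of 29 tested, with 2 rises and a median slope of -0.13 per day. Tenascin C, encoded by tnc, an anti-adhesive protein of remodelling tissue, was at 2741, 2640 and 1802 TPM at 3 dpa, 982, 873 and 734 at 7 dpa, 521, 453 and 457 at 10 dpa, and 178 and 211 at 14 dpa. Each time lay wholly below the one before it, a slope of -0.339 ± 0.019 (adjusted p = 3.39e-07) or a 2-fold fall every 2.95 days. Periostin, encoded by postnb, fell from 4983 to 5861 TPM to 608 and 671 (-0.283 ± 0.016, 3.39e-07). The proteoglycan versican (vcana) fell by 2-fold every 1.95 days and the hyaluronan synthase has2 by -0.33 per day, the latter not past the threshold without the 3 dpa libraries (-0.19, adjusted p = 0.054). A departure from a line was found for 11 of the 29. Of 20 cartilage and joint genes 9 fell, 2 rose and 7 departed from a line. The type IX collagen chains moved in opposite directions there: col9a1a fell (-0.347 ± 0.034) from 17.3 to 24.2 TPM to 0.40 and 0.53, and col9a2 rose (0.201 ± 0.027) from 0 to 0.062 TPM to 3.29 and 2.201.

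Of 21 tested basement membrane and Fraser complex genes, which join the epidermis to the tissue beneath it, 12 fell and 1 rose. Transcripts of frem3 were at 104, 73.9 and 33.9 TPM at 3 dpa, 5.52, 8.72 and 2.58 at 7 dpa, 1.197, 1.92 and 2.03 at 10 dpa, and 0.20 and 0.67 at 14 dpa. The 3 dpa libraries lay far above all others, and the rate was -0.98 per day to 7 dpa and -0.23 from 10 to 14 dpa. The related frem2a (-0.443 ± 0.042), frem2b (-0.303 ± 0.034) and the laminin chain gene lama1 (-0.340 ± 0.039) fell more evenly. All 4 passed without the 3 dpa libraries. Over the whole list the median rate was -0.011 per day from 3 to 7 dpa and -0.25 from 10 to 14 dpa, and without the 14 dpa libraries 6 members fell and 5 rose. The single rise was lost without any one 3 dpa library, and there were 2 without 7 dpa replicate 2, 14 dpa replicate 1 or the 3 high-fosb libraries.

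Genes used as markers of the blastema and of fibroblasts fell in most cases. The lists share 7 tested genes, prrx1a, prrx1b, tph1b and 4 twist genes. Of 28 blastema genes 20 fell and none rose (median slope -0.20 per day), and of 22 fibroblast genes 18 fell and none rose (-0.16). The retinoic acid synthesis gene aldh1a2 was at 140, 111 and 118 TPM at 3 dpa, 44.9, 52.7 and 44.7 at 7 dpa, 34.7, 32.3 and 31.2 at 10 dpa, and 12.7 and 15.4 at 14 dpa. No times overlapped, and the slope was -0.281 ± 0.018 (adjusted p = 1.01e-06). The calmodulin-binding protein gene pcp4a fell from 200 to 232 TPM at 3 dpa to 15.7 to 21.0 at 7 dpa and 5.45 and 6.73 at 14 dpa, mostly in the first interval (departure, adjusted p = 2.66e-04). The leptin gene lepb fell (-0.33), as did the homeobox gene msx2b (-0.31), and neither passed without the 3 dpa libraries (-0.23 and -0.16). Clusterin (clu, -0.38), an extracellular chaperone, and the globin cygb1 (-0.38) passed in both. The summed fibroblast list was 18043 to 20267 TPM at 3 dpa and 2204 to 2368 TPM at 14 dpa. In bulk tissue, fewer cells of a type and less RNA per cell cannot be told apart, here and in every cell type list that follows.

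The tryptophan hydroxylase gene tph1b, of serotonin synthesis, stood on both lists and shows a slope without a steady trend. It was at 61.1, 86.1 and 89.5 TPM at 3 dpa and between 0.73 and 2.45 TPM in all 8 later libraries. Its slope of -0.481 ± 0.112 (adjusted p = 0.0056) rested on the first time, with a departure from the line (9.58e-05) and a slope of 7.7e-04 without the 3 dpa libraries.

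Of 27 osteoblast genes tested, 16 fell and none rose. Of the same 27, 12 had negative curvature (a rise that slowed or turned back, or a fall that quickened) and none positive. Their median rate was -0.018 per day from 3 to 7 dpa, -0.089 from 7 to 10 dpa and -0.26 from 10 to 14 dpa, beside -0.11, -0.14 and -0.19 for fibroblast genes. The counts were 17 falls when 3 dpa was left out, and 9 falls and 5 rises when 14 dpa was. Besides col1a1a and postnb the steepest were dlx5a, a homeobox gene of bone-forming cells (-0.23), and fkbp11, a prolyl isomerase of the endoplasmic reticulum (-0.23), neither of which passed without the 3 dpa libraries (-0.14 and -0.12). Of 9 osteoclast genes 3 rose and 1 fell, beside 17.3% and 13.5% of all genes. The acid phosphatase gene acp5b rose from 3.62 to 5.81 TPM to 16.6 and 15.3 (0.163 ± 0.021, adjusted p = 9.52e-05), while the cathepsin gene ctsk, a collagen-degrading protease of bone-resorbing cells, fell slightly (-0.059), and did not pass once 14 dpa replicate 1 was left out (-0.050, adjusted p = 0.057).

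**Figure D2:**
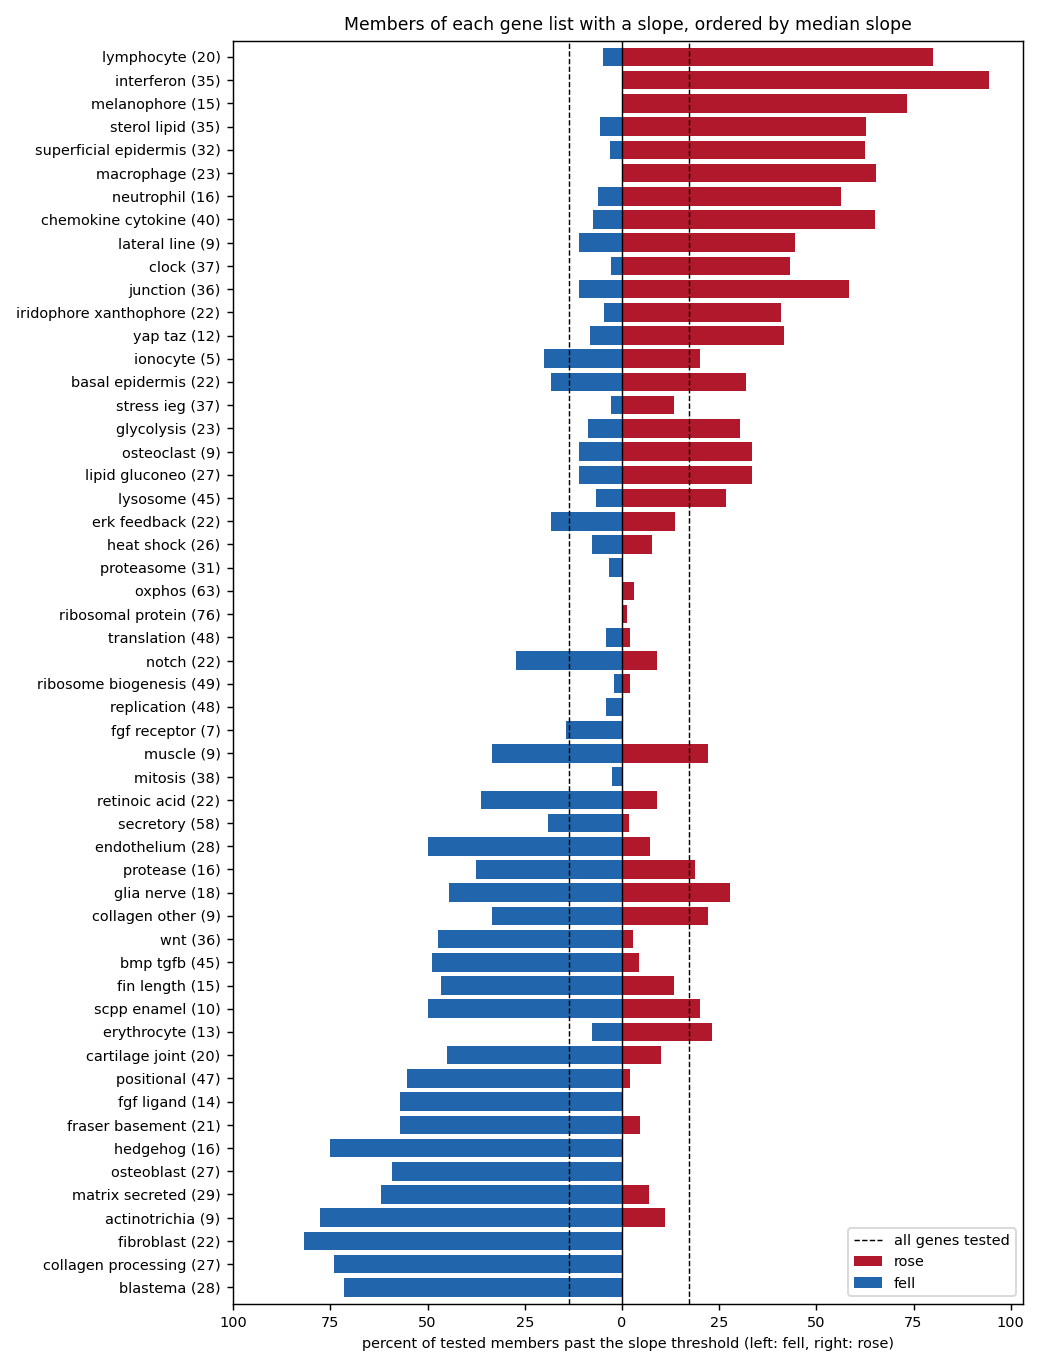
Percent of tested members of each of the 54 gene lists that rose (right, red) or fell (left, blue), ordered by median slope, with the number tested in brackets; dashed lines are the shares over all genes, 17.3% and 13.5%. Blastema, collagen-processing and fibroblast genes stand at one end and lymphocyte, interferon and melanophore genes at the other, with ribosomal protein, replication and mitosis genes showing few calls either way.

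Hedgehog pathway genes, which in fin regeneration act near the bone-forming cells, fell in 12 of 16 tested cases and rose in none, with a median slope of -0.11 per day. The ligand gene shha was at 9.84, 21.4 and 26.4 TPM at 3 dpa, 16.8, 10.4 and 21.4 at 7 dpa, 11.5, 4.57 and 5.76 at 10 dpa, and 4.50 and 3.27 at 14 dpa. Libraries of 3 and 7 dpa overlapped, and both at 14 dpa lay below all others. Its slope was -0.1995 ± 0.041 (adjusted p = 0.0026), and -0.19 without the 14 dpa libraries (0.052). The transducer smo (-0.14), the transcription factor gli2a (-0.19) and the co-receptor gas1a (-0.16) fell with it. Leaving out 3 dpa, 10 members fell, and leaving out 14 dpa, 5 did.

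In the Wnt list 17 of 36 tested genes fell and 1 rose, the Wnt-inactivating enzyme gene notum1a (0.14, adjusted p = 0.031), named after its value was seen. No member rose without any one 3 dpa library or without the 3 high-fosb libraries, and 2 rose without 10 or 14 dpa replicate 1. The transcription factor gene lef1, a Wnt target and effector, was at 185, 217 and 230 TPM at 3 dpa, 121, 140 and 113 at 7 dpa, 83.4, 81.9 and 97.6 at 10 dpa, and 33.4 and 28.3 at 14 dpa. Every time lay below the one before it, with a slope of -0.247 ± 0.019 (adjusted p = 3.13e-06). The secreted antagonists sfrp2 (-0.33) and dkk3b (-0.21) fell along with the ligand wnt5b (-0.18), so both activators and inhibitors were among the falling genes. The count of 17 dropped to 11 without 3 dpa replicate 2 or either 14 dpa library, to 10 without the 3 dpa libraries and to 7 without those of 14 dpa.

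Of 45 Bmp and Tgfb genes 22 fell and 2 rose. The protease gene bmp1a, whose product trims collagen and Bmp antagonists, fell from 494 to 720 TPM to 114 and 113 (-0.228 ± 0.017, adjusted p = 2.54e-06). The pseudoreceptor gene bambia (-0.22), the ligand tgfb2 (-0.20) and the antagonist chrd (-0.20) fell, and of these only tgfb2 passed without the 3 dpa libraries (-0.22). Of 22 retinoic acid genes 8 fell and 2 rose, beside 13.5% and 17.3% of all genes, and 3 fell without the 14 dpa libraries. The synthesis gene aldh1a2 (above) and the binding protein gene crabp2b (-0.25) fell, while the retinol carrier rbp4 rose (0.25), not past the threshold without the 3 dpa libraries (0.097, adjusted p = 0.33). Of 22 Notch genes 6 fell and 2 rose, beside the same shares of all genes. The 6 became 2 or 3 without any one 3 dpa library or without 14 dpa replicate 2. The Notch target her6 (-0.18) fell and the ligands dld and dlc rose (0.18 and 0.17), the ligands not past the threshold without the 3 dpa libraries.

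Positional genes, homeobox and other factors that set identity along the limb or fin, fell in 26 of 47 tested cases and rose in 1. None of the 47 departed from a line, against 6.61% of all genes, which does not show that their courses were straight. The median rates of -0.091, -0.13 and -0.088 per day over the 3 intervals were close to each other. Their summed level was 6995 to 7140 TPM at 3 dpa, 3097 to 3588 at 7 dpa, 1733 to 2134 at 10 dpa, and 1095 and 1341 at 14 dpa, with no overlap between times. Besides the genes already named, lhx2b fell (-0.23), but not past the threshold without the 3 dpa libraries (-0.17, adjusted p = 0.25). In that setting 13 members fell. The riser was hoxc11a (0.14, adjusted p = 0.031), named after its value was seen, and no member rose without 3 dpa replicate 1 or 2 or 14 dpa replicate 1. There were 2 rises without 7 dpa replicate 2 or 3 or without the 3 high-fosb libraries.

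Of 20 genes on the Fgf ligand list, all in the table, 14 passed the filter on low values. Of these 8 fell and none rose. Whether every product on the list, those of fgf13a and fgf13b among them, acts as a receptor ligand was not tested. All 8 were under 40 TPM in every library, and changes of the lowest are the most understated. The blastema ligand fgf20a was at 21.7, 26.8 and 33.3 TPM at 3 dpa, 3.35, 6.30 and 5.16 at 7 dpa, 2.13, 2.05 and 4.07 at 10 dpa, and 1.75 and 1.27 at 14 dpa. The 3 dpa libraries lay above all others, and most of the fall came before 7 dpa (-0.65 per day, against -0.22 and -0.14 later). The slope was -0.336 ± 0.045 (adjusted p = 1.38e-04), and -0.17 without the 3 dpa libraries (0.030). The wound epidermis ligand fgf3 fell from 8.33 to 11.7 TPM to 1.90 and 1.93 (-0.184 ± 0.025), and passed there too (-0.12, 0.044). Smaller falls were found for fgf4 (-0.16), fgf2 (-0.13), fgf13a (-0.12), fgf10b (-0.11), fgf20b (-0.097) and fgf10a (-0.096). The slope of fgf10b did not pass when 3 dpa replicate 1 or 3, 7 dpa replicate 1 or 3, 10 dpa replicate 1 or either 14 dpa library was left out (adjusted p = 0.051 to 0.20). That of fgf10a did not pass when 3 dpa replicate 1 or 2 or 14 dpa replicate 1 was left out (0.053 to 0.065). Leaving out all 3 dpa libraries, 4 genes of the list fell and none rose, beside 5.75% and 5.88% of all genes. There fgf4 (-0.11), fgf13a (-0.11) and fgf10a (-0.088) did not pass. Leaving out those of 14 dpa, 4 fell and 3 rose, beside 13.5% and 14.5% of all genes. In that setting fgf2, fgf13a, fgf10b and fgf10a did not pass (adjusted p = 0.064 to 0.69).

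The other 6 tested genes of the Fgf ligand list did not pass. Slopes were 0.066 ± 0.041 for fgf18a, 0.058 ± 0.028 for fgf22 and 0.055 ± 0.039 for fgf13b. They were -0.041 ± 0.031 for fgf24, -0.024 ± 0.023 for fgf7 and 0.0031 ± 0.0276 for fgf16. Among them fgf18a and fgf22 departed from a line (adjusted p = 0.034 and 0.035): fgf18a was at 1.58 to 2.43 TPM at 3 dpa, at 4.21 to 7.95 at 7 and 10 dpa, and at 3.83 and 3.65 at 14 dpa. Without the 14 dpa libraries fgf18a (0.19, adjusted p = 0.015), fgf22 (0.14, 0.0081) and fgf13b (0.18, 0.010) rose. Of the 7 receptors only the decoy-like fgfrl1a fell, from 79.4 to 111 TPM to 35.3 and 37.7 (-0.125 ± 0.021, adjusted p = 7.86e-04). Its paralog fgfrl1b had a slope of -0.122 ± 0.046 (adjusted p = 0.059) that passed without the 3 high-fosb libraries (-0.14, 4.6e-04). The receptor kinase genes fgfr1a, fgfr1b, fgfr2, fgfr3 and fgfr4 had slopes from -0.051 to 0.025 per day, none past the threshold. Without the 3 dpa libraries fgfr1a fell (-0.12, adjusted p = 0.015), and without those of 14 dpa fgfr1b rose (0.096, 0.046).

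Transcripts downstream of Erk did not move one way. With all 11 libraries 4 of 22 tested fell and 3 rose, near the 13.5% and 17.3% of all genes, with a median slope of 0.021 per day. The fallers were the Ets factors etv5b, etv5a and etv4, which are transcribed in response to Fgf signalling, and the growth regulator myca. Transcripts of etv5b were at 154, 174 and 190 TPM at 3 dpa, 115, 87.4 and 96.5 at 7 dpa, 96.9, 79.6 and 81.6 at 10 dpa, and 57.6 and 58.7 at 14 dpa. Only the libraries of 7 and 10 dpa overlapped, with a slope of -0.143 ± 0.017 (adjusted p = 5.46e-05). For myca, 118 to 122 TPM at 3 dpa became 31.1 and 29.1 at 14 dpa (-0.182 ± 0.021, 5.64e-05). The slopes of etv5a (-0.088 ± 0.019) and etv4 (-0.082 ± 0.016) were smaller and did not pass without the 3 dpa libraries (-0.073 and -0.056), whereas those of etv5b and myca did (-0.11 and -0.14).

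The 3 risers were the early response gene egr2a (0.17, adjusted p = 0.035), ets2 (0.11, 0.013) and the phosphatase gene dusp7 (0.072, 0.0091), and none passed without the 3 dpa libraries (0.043, 0.072 and 0.014). The call of egr2a was also lost without any one library of 3 or 14 dpa (adjusted p = 0.055 to 0.12). The feedback inhibitors spry1, spry2, spry4, spred1, spred2b, il17rd, dusp1, dusp2, dusp4 and dusp5 had slopes from -0.081 to 0.10 that did not pass. Several of them were high in the libraries with high fosb: dusp5 was at 222, 360 and 416 TPM there and at 41.5 to 201 in the other 8, and spry4 was at 125, 91.2 and 117 TPM against 49.8 to 83.9. Without these 3 libraries 8 members fell and 5 rose, beside 15.8% and 20.8% of all genes. The 3 were picked by fosb after the data were seen, and several members were high in them. Leaving them out can thus shape these counts, which are no separate support for a fall. The additional falls included spry4 (-0.059, adjusted p = 0.0063), spry1 (-0.069, 0.047), spred2b (-0.063, 0.046) and il17rd (-0.073, 0.018). The additional rises were fosl1a (0.13, 0.0058) and egr3 (0.095, 0.0058). The part of these libraries' other differences in the counts was not tested. With library weights 8 members rose, beside 2563 of all genes tested, and spry1 fell (-0.097, adjusted p = 0.011). The slope of spry1 also passed without 7 dpa replicate 2, 14 dpa replicate 1 or all 14 dpa libraries (0.018 to 0.0496). That of spred2b passed with library weights (0.019), without 3 dpa replicate 3 (0.034) and without all 3 dpa libraries (0.039). The genes dusp6, egr1 and spred2a are not analysed here.

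Genes linked to fin length fell in 7 of 15 tested cases and rose in 2. Without the 3 dpa libraries 3 fell and none rose, beside 5.75% and 5.88% of all genes. There was 1 rise without 14 dpa replicate 1 or replicate 2, and none where a mean of at least 5 TPM was required. A further such gene, named here through the cell junction list, is the connexin gene cx43, mutations of which shorten fin ray segments. It was at 390, 392 and 391 TPM at 3 dpa, 220, 234 and 201 at 7 dpa, 165, 124 and 140 at 10 dpa, and 66.9 and 66.6 at 14 dpa. Replicates were close and no times overlapped, giving a slope of -0.237 ± 0.013 (adjusted p = 3.39e-07), a 2-fold fall every 4.22 days. On the list itself, the growth factor igf2b (-0.21), the calcineurin regulator rcan2 (-0.17), the cx43-linked genes sema3d (-0.15) and hapln1a (-0.15), the secreted protein gene scube3 (-0.13), and igf2bp3 and igf2bp1 (-0.11 and -0.092) also fell, the last losing its call without either 14 dpa library (-0.073 and -0.085) or 3 dpa replicate 2 (-0.087), and igf2bp3 without 14 dpa replicate 2 (-0.094, adjusted p = 0.055). The potassium channel gene kcnk5b, whose overactive form gives long fins, was at 20.8, 19.8 and 16.0 TPM at 3 dpa, 22.7, 25.3 and 17.6 at 7 dpa, 23.5, 31.3 and 28.4 at 10 dpa, and 26.2 and 25.7 at 14 dpa. Its slope of 0.051 ± 0.019 did not pass (adjusted p = 0.062), but did with library weights (0.044, 0.036). Of the calcineurin subunits, ppp3ca (0.084) and ppp3cb (0.072) rose from low levels of at most 0.38 and 3.75 TPM at 3 dpa, and ppp3cca and ppp3r1a did not pass (0.0049 and 0.018). The channel gene kcnj13 (0.028), the insulin-like receptor igf1ra (-0.069) and igf2a (-0.049) did not pass either. The slope of igf2a passed without the 3 high-fosb libraries (-0.059, adjusted p = 0.0499). Without the 3 dpa libraries the rises of ppp3ca (0.10, adjusted p = 0.058) and ppp3cb (0.066, 0.15) did not pass. Nor did the falls of rcan2, scube3, igf2bp3 and igf2bp1 in that setting (adjusted p = 0.099 to 0.37).

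The 15 largest rises that moved one way at every step ran from hspa12a.3 (0.427 ± 0.093 per day) through ptgdsb.1, prg4a, sult5a1, cfd, agr2, ccl19a.1, cmah, hmgcra, slc25a55b, rsad2, irf7, irf1a and lgals3bpa to ucp3 (0.296 ± 0.053). Leaving out 3 dpa, 8 of the 15 passed, and hspa12a.3 (0.30), ptgdsb.1 (0.12), prg4a (0.15), cfd (0.15), ccl19a.1 (0.36), hmgcra (0.16) and ucp3 (0.15) did not. The prostaglandin synthase gene ptgdsb.1 was at 42.3, 87.2 and 182 TPM at 3 dpa, 756, 916 and 1334 at 7 dpa, 1415, 1831 and 1619 at 10 dpa, and 1931 and 1568 at 14 dpa. Its rise was almost complete by 10 dpa, with rates of 0.99, 0.24 and 0.027 per day. The sialic acid enzyme gene cmah had the opposite shape, at 1.09 to 2.44 TPM at 3 dpa, 3.46 to 4.84 at 10 dpa, and 44.0 and 38.61 at 14 dpa, with rates of 0.24, 0.062 and 0.76 per day. Neither gene's 3 and 14 dpa libraries overlapped, which the rule for naming them required.

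Among rising genes the interferon response was the list with the largest share of calls of the 54. The lists were chosen with earlier results of these data known, so this rank is a description only. Of 35 tested members 33 rose and none fell, with a median slope of 0.16 per day. The means of 30 rose at every step, beside 14.98% of all genes. The median rate was 0.13, 0.14 and 0.18 per day over the 3 intervals. Without the 3 dpa libraries 25 members rose, beside 5.88% of all genes. The antiviral gene rsad2 was at 6.92, 10.98 and 19.2 TPM at 3 dpa, 22.5, 18.6 and 14.8 at 7 dpa, 37.1, 28.9 and 19.8 at 10 dpa, and 181 and 140 at 14 dpa. Libraries of neighbouring times overlapped up to 10 dpa, and both at 14 dpa stood well above the rest. Its slope was 0.324 ± 0.046 (adjusted p = 1.98e-04) and its rate 0.62 per day in the last interval.

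The transcription factor gene irf7, which drives interferon genes, was at 31.0, 24.1 and 30.4 TPM at 3 dpa, 40.8, 124 and 18.2 at 7 dpa, 49.4, 158 and 141 at 10 dpa, and 230 and 382 at 14 dpa. At 7 and 10 dpa its highest values lay in the 3 libraries with high fosb, and it rose with a slope of 0.320 ± 0.058 (adjusted p = 0.0011). The same held for irf1a, at 8.37, 7.35 and 9.28 TPM in those 3 libraries against 0.53 to 2.86 TPM in the others of 7 and 10 dpa (0.302 ± 0.058). Without the 3 libraries 34 members rose. The antiviral gene mxb was at 41.3 to 83.7 TPM at 3 dpa, 59.9 to 97.8 at 7 dpa, 103 to 126 at 10 dpa, and 521 and 530 at 14 dpa (0.271 ± 0.040), although reads divided among mx genes make its level uncertain. The summed list was 2810 to 3386 TPM at 3 dpa and 10029 to 10708 at 14 dpa, within the 9711 to 12389 TPM of 0 dpa.

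Chemokine and cytokine genes rose in 26 of 40 tested cases and fell in 3, with 6 rises and 2 falls without the 3 dpa libraries. The chemokine gene ccl19a.1, whose family guides lymphocytes and dendritic cells in mammals, went from 1.495 to 4.01 TPM at 3 dpa to 26.4 and 51.8 at 14 dpa (0.345 ± 0.058, adjusted p = 7.13e-04), and to 0.36 (0.052) without the 3 dpa libraries. The neighbouring family member ccl19a.2 rose (0.32, adjusted p = 0.038), with 151, 199 and 217 TPM in the high-fosb libraries and 11.5 to 24.8 in the others of 7 and 10 dpa, and lost its call without any one 3 dpa library, 7 dpa replicate 1 or 14 dpa replicate 2 (adjusted p = 0.052 to 0.12). Transcripts of ccl27b were at 0.32 to 2.197 TPM at 3 dpa and between 31.9 and 70.9 TPM in all later libraries, an early step (0.48, departure adjusted p = 7.11e-04) that left a slope of 0.060 without 3 dpa. Many of these genes are low, and 13 rose where a mean of at least 5 TPM was required.

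Markers of immune cells rose in most cases, at different times. Of 23 macrophage genes 15 rose and none fell, of 16 neutrophil genes 9 rose and 1 fell, and of 20 lymphocyte genes 16 rose and 1 fell. The rises were 8, 7 and 4 with 3 dpa left out, and 2 lymphocyte genes fell without the 3 high-fosb libraries. Summed levels from 3 to 14 dpa went from 7892 to 8540 TPM to 9542 and 10509 for macrophages and from 255 to 283 TPM to 520 and 630 for lymphocytes. The summed neutrophil list was 1785 to 1930 TPM at 3 dpa, 924 to 1141 at 7 dpa, and 1731 and 2221 at 14 dpa, so its 3 and 14 dpa libraries overlapped. The member that fell, the protease gene adam8a, was at 646 to 914 TPM at 3 dpa and 50.7 and 46.8 at 14 dpa. The lymphocyte list had its fastest median rate early, 0.26 per day from 3 to 7 dpa and -0.0076 from 10 to 14 dpa, whereas the neutrophil list had 0.041 and 0.13. The summed lymphocyte list was 546 TPM in the high-fosb 7 dpa replicate 2, against 349 and 350 in replicates 1 and 3. At 10 dpa it was 649 and 828 TPM in the high-fosb replicates 2 and 3, against 436 in replicate 1. The summed macrophage list was also higher in these libraries than in others of their time, the neutrophil list was not. The part of the high-fosb libraries in these rates was not tested. The perforin gene prf1.1, a pore-forming protein of killer lymphocytes, was at 3.62, 3.08 and 2.19 TPM at 3 dpa, 10.6, 15.5 and 10.19 at 7 dpa, 20.5, 13.8 and 19.1 at 10 dpa, and 32.9 and 26.3 at 14 dpa. Libraries of 7 and 10 dpa overlapped and the others did not, with a slope of 0.280 ± 0.032 (adjusted p = 5.07e-05). The T cell kinase gene lck (0.22), sla2 (0.22) and the interleukin receptor gene il2rb (0.21) rose, none past the threshold without the 3 dpa libraries.

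The neutrophil gene lect2l was at 131, 107 and 131 TPM at 3 dpa, 171, 248 and 189 at 7 dpa, 241, 468 and 312 at 10 dpa, and 726 and 579 at 14 dpa. The libraries of 14 dpa lay above all others, with nearly even rates of 0.20, 0.24 and 0.25 per day and a slope of 0.228 ± 0.022 (adjusted p = 1.55e-05). The myeloperoxidase gene mpx (0.26) and the neutrophil protease gene npsn (0.19) also rose, and passed without the 3 dpa libraries (0.24 each). Among macrophage genes the granulin gene grn2 rose from 13.5 to 19.3 TPM to 115 and 100 (0.260 ± 0.030), and passed without 3 dpa (0.34). The perforin-like gene mpeg1.3 went from 4.44 to 8.30 TPM at 3 dpa to 54.0 to 96.9 at 7 dpa, 121 to 274 at 10 dpa, and 93.4 and 70.0 at 14 dpa, a bent course (departure, adjusted p = 0.0013) with a slope of 0.040 without 3 dpa. The steepest on the list was irg1l, related to the macrophage enzyme that makes itaconate. It was at 0.20 to 36.0 TPM in the 9 libraries up to 10 dpa and 322 and 532 at 14 dpa. Its slope of 0.601 ± 0.150 (adjusted p = 0.0086) was lost without 14 dpa replicate 2 (0.47, 0.058), and was 0.18 (0.49) without both. Which cells of this bulk tissue expressed irg1l was not tested, so its rise cannot be assigned to macrophages.

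Superficial epidermis genes rose in 20 of 32 tested cases and fell in 1, the keratin gene krt18a.1 (-0.19), named after its value was seen. The count was 13 without 3 dpa replicate 1 and 11 without the 3 dpa libraries. The claudin gene cldne, of tight junctions in the outer layer, was at 338, 313 and 338 TPM at 3 dpa, 516, 736 and 436 at 7 dpa, 745, 1109 and 859 at 10 dpa, and 1357 and 1668 at 14 dpa. Every time lay above the one before it, at even rates of 0.21, 0.23 and 0.19 per day, with a slope of 0.211 ± 0.019 (adjusted p = 1.12e-05). The calcium-binding protein genes s100v1 (0.24) and pvalb8 (0.21) and the anterior gradient gene agr1 (0.24) rose and passed without the 3 dpa libraries. Its relative agr2, a disulfide isomerase of mucus cells, was at 4.32 to 10.6 TPM at 3 dpa, 5.52 to 10.7 at 7 dpa, 10.6 to 13.4 at 10 dpa, and 129 and 133 at 14 dpa. Like scpp8 it was high at the last time, at a rate of 0.84 per day after 10 dpa (departure, adjusted p = 0.0075), and its slope of 0.350 ± 0.063 became 0.12 (0.077) without the 14 dpa libraries.

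Cell junction genes rose in 21 of 36 cases and fell in 4, with 9 rises without the 3 dpa libraries. The connexin gene cx30.9 rose (0.24) while cx43 and the mesenchymal cadherin cdh2 fell (-0.24 and -0.25). Basal epidermis genes were mixed, with 7 rises and 4 falls of 22, beside 17.3% and 13.5% of all genes. The count of 7 became 4 without 3 dpa replicate 1 or 2. Fibronectin (fn1a, -0.21) and lepb were among the fallers, and the keratin gene krtt1c19e, of basal cells, rose (0.25), a call lost without 3 dpa replicate 1 (0.17, adjusted p = 0.073) or 2 (0.21, 0.076). The summed superficial list was 4.80 to 6.001% of all TPM at 3 dpa and 8.34 and 8.51% at 14 dpa. The summed list of actinotrichia and their collagens, col1a1a included, moved the other way. The superficial sum was already 6.93 to 10.04% at 7 dpa and 7.33 to 9.56% at 10 dpa, ranges that enclose both 14 dpa values. The part of these shifts in the slopes was not tested.

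Sterol and fatty acid synthesis genes rose in 22 of 35 cases and fell in 2. The gene hmgcra encodes a main control enzyme of sterol synthesis. Its transcripts were at 4.19, 17.1 and 9.92 TPM at 3 dpa, 81.3, 24.9 and 104 at 7 dpa, 96.7, 52.3 and 51.3 at 10 dpa, and 168 and 100.8 at 14 dpa. All later libraries lay above those of 3 dpa, but those of 7, 10 and 14 dpa overlapped. The slope was 0.336 ± 0.067 (adjusted p = 0.0021), and 0.16 (0.26) without the 3 dpa libraries. The squalene epoxidase gene sqlea (0.38) and the sterol demethylase gene cyp51 (0.28) had the same within-time pattern: at 7 dpa both were lowest in replicate 2, and at 10 dpa both were highest in replicate 1. The lower libraries within these times were the 3 with high fosb. The summed list was 1224 TPM in 7 dpa replicate 2, against 1850 and 1996 in replicates 1 and 3. At 10 dpa it was 1515 and 1404 TPM in replicates 2 and 3, against 1990 in replicate 1. Across the list the median rate was 0.20 per day early, -0.050 from 7 to 10 dpa and 0.25 late. The part of the high-fosb libraries in these rates was not tested. Only 2 members rose when 3 dpa was left out.

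**Figure D3:**
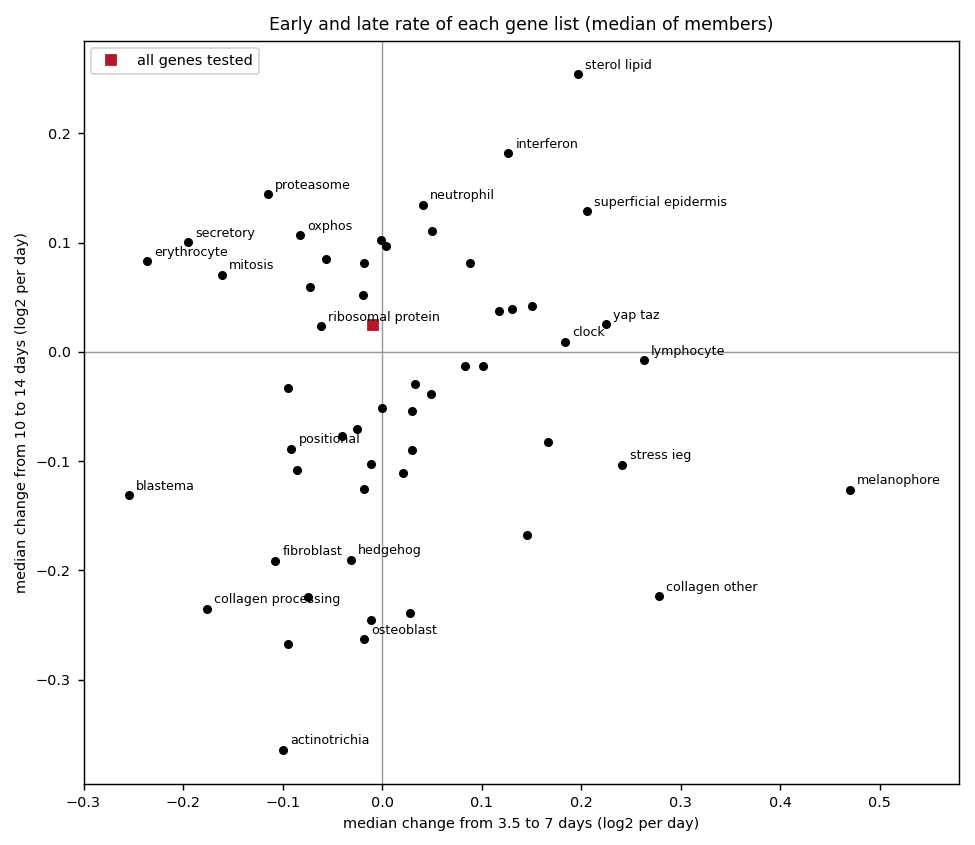
Median change per day of each gene list from 3.5 to 7 days (horizontal) against that from 10 to 14 days (vertical), in log2 units; each point is 1 of 54 lists and the red square is all genes tested. Interferon and sterol genes moved up in both intervals, blastema and collagen-processing genes moved down in both, and melanophore genes moved up early and down late.

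Circadian clock genes rose in 16 of 37 cases and fell in 1, with no call in either direction without the 3 dpa libraries. The count was 9 without 3 dpa replicate 3. The clock repressor gene nr1d1 was at 70.7, 55.4 and 64.0 TPM at 3 dpa, 98.8, 281 and 196 at 7 dpa, 167, 300 and 271 at 10 dpa, and 245 and 222 at 14 dpa (0.187 ± 0.043, adjusted p = 0.0053). The 3 dpa libraries were the lowest, and the later times overlapped. The leucine zipper gene nfil3-6 (0.18) and the repressor bhlhe41 (0.18) departed from a line, and the latter lost its call without any one 3 dpa library (adjusted p = 0.063 to 0.071). Hours of collection were not among the labels, so a difference in time of day between groups cannot be told apart from days of regrowth. Immediate early and stress genes rose in 5 of 37 cases and fell in 1, and in 9 and 2 without the 3 high-fosb libraries. Over all genes the shares were 17.3% and 13.5%, and 20.8% and 15.8% without those libraries. The rises were thus near the share of all genes and the falls below it. Without any one 3 dpa library 3 of the 37 rose and none fell. The rises numbered 8 without 7 dpa replicate 2, and the falls 2 without 7 dpa replicate 3 and 0 without 14 dpa replicate 1. The growth arrest gene gadd45aa rose steadily (0.139 ± 0.019), from 12.9 to 19.9 TPM to 53.8 and 38.8. The slope of fosb itself was 0.097 ± 0.161 (adjusted p = 0.70).

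Pigment cell genes had slopes, but bent ones. Of 15 melanophore genes 11 rose and none fell, 12 departed from a line and 13 had negative curvature. The melanin synthesis gene tyrp1b was at 32.1, 29.6 and 40.1 TPM at 3 dpa, 287, 313 and 306 at 7 dpa, 362, 534 and 419 at 10 dpa, and 226 and 302 at 14 dpa. Its libraries jumped between 3 and 7 dpa, peaked at 10 dpa and then came down, with rates of 0.89, 0.17 and -0.18 per day. The slope of 0.298 ± 0.078 (adjusted p = 0.011) was -0.026 without the 3 dpa libraries. The related tyr (0.23) and pmela (0.23), of melanin and its fibrils, had the same shape and lost their calls without any one 3 dpa library (adjusted p = 0.051 to 0.089). The list had 6 rises without any one of those libraries and 1 without all of them. Of 22 iridophore and xanthophore genes 9 rose, 1 fell and 9 departed from a line. There the purine enzyme gene pnp4a (0.29) and the transporter slc2a15b (0.17) passed with all libraries but not without any one 3 dpa library (adjusted p = 0.058 to 0.10), and their slopes were -0.027 and -0.040 without all of them. The list had 3 to 5 rises without one or another 3 dpa library.

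Among genes with a highest time mean of at least 5 TPM and no clone name, 8 had the smallest p-values of the F test for departure. They were pcolceb, tph1b, entpd3, tyrp1b, icn2, itga11a, matn4 and chad. Apart from tph1b they were high at 7 and 10 dpa and lower on either side. The procollagen enhancer gene pcolceb was at 13.5, 12.8 and 16.2 TPM at 3 dpa, 106, 131 and 109 at 7 dpa, 145, 173 and 166 at 10 dpa, and 90.8 and 97.0 at 14 dpa (departure, adjusted p = 7.29e-05). Its slope of 0.272 ± 0.074 lost its call without 3 dpa replicate 1 or 2 (adjusted p = 0.052 each) and was -0.037 without the 3 dpa libraries. For the collagen receptor gene itga11a the means were 7.88, 32.5, 31.0 and 11.9 TPM and the slope did not pass (0.069, adjusted p = 0.45). The matrix genes matn4 and chad had slopes of 0.14 and 0.22 that did not pass (adjusted p = 0.14 and 0.060). That of matn4 passed with library weights (0.16, 0.039) and without the 14 dpa libraries (0.36, 0.0035). Without the 3 dpa libraries matn4 fell (-0.15, 0.017). That of chad did pass with the first time taken as day 3 (0.044), with the rank of time (0.0497), with library weights (0.0098) and without 7 dpa replicate 2 or either 14 dpa library (0.023 to 0.044). The slopes of entpd3 and icn2 passed (0.24 and 0.15) but not without any one 3 dpa library (adjusted p = 0.087 to 0.11).

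**Figure D4:**
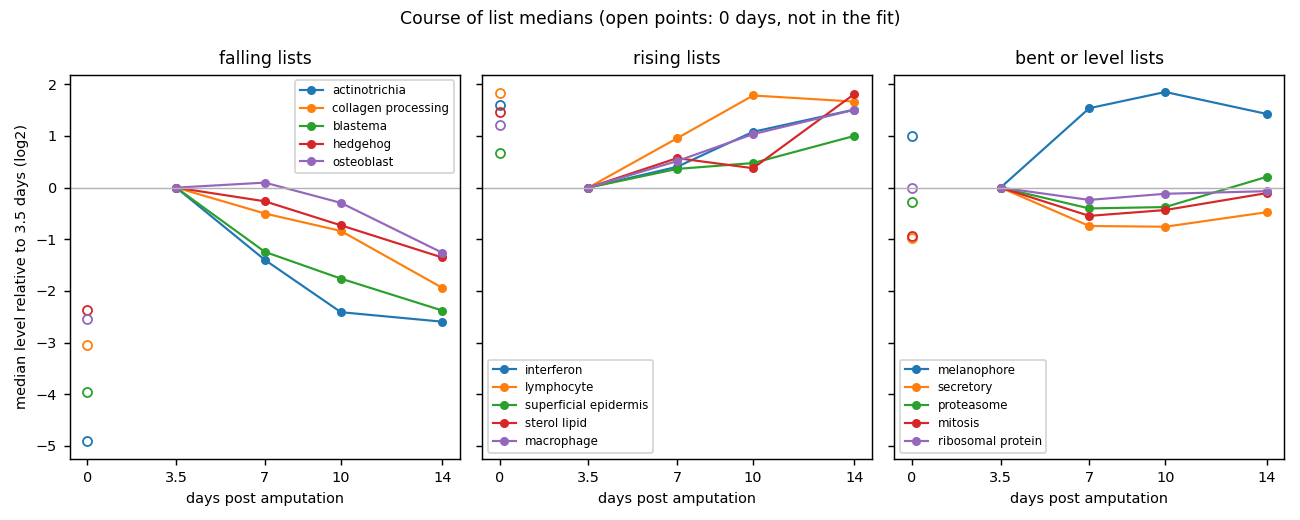
Median log2 level of 15 gene lists at each time minus their median at 3.5 days, against days post amputation; lines join list medians and open points are 0 dpa, not in the fit. Falling lists stayed above their 0 dpa medians at 14 dpa, osteoblast genes fell mainly after 10 dpa, melanophore genes peaked at 10 dpa, and secretory, proteasome and mitosis genes were lower at 7 and 10 dpa than at 3 and 14 dpa.

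Lists of basic cell functions differed in how often their genes bent. Of 31 proteasome subunit genes, 22 departed from a line and 29 had positive curvature, against 6.61% and 6.92% of all genes, with median rates of -0.11, -0.0020 and 0.14 per day. None rose and 1 fell. That was psmb7, a catalytic subunit, at 137, 129 and 165 TPM at 3 dpa, 79.8, 68.8 and 74.6 at 7 dpa, 54.5, 48.5 and 43.8 at 10 dpa, and 30.29 and 22.4 at 14 dpa (-0.228 ± 0.016, adjusted p = 1.79e-06). It fell at every step without overlap while the summed list went from 4630 to 5520 TPM at 3 dpa through 3392 to 4058 at 7 dpa to 5515 and 5742 at 14 dpa. When 3 dpa was left out 13 members rose, and when 14 dpa was, 13 fell.

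Among 58 secretory pathway genes there were 31 departures from a line, 35 with positive curvature, 11 falls and 1 rise. The 11 became 5 or 6 without 3 dpa replicate 2 or 1, 17 without 14 dpa replicate 2, and 40 without both 14 dpa libraries. The rise was arf4b (0.21), and there were 4 rises without 3 dpa replicate 1, 2 without 10 dpa replicate 2 or 3 or 14 dpa replicate 1, and 5 without the 3 high-fosb libraries. Respiratory chain genes had 34 of 63 with positive curvature, 13 departures, 2 rises (cox6b1 and cox5aa) and no fall. There was 1 rise without 3 dpa replicate 1 or 2, any one 7 dpa library, 10 dpa replicate 2 or either 14 dpa library, and there were 7 without the 3 high-fosb libraries. When 3 dpa was left out 8 rose, and when 14 dpa was, none rose and 11 fell. The cell cycle showed few slopes. Of 48 replication genes 2 fell, ccne1 and orc3 (both of DNA replication), and of 38 mitosis genes 1 fell, top2a (-0.067), each call lost without any one 3 dpa library. Of the replication genes 1 departed from a line, and 4 fell without the 3 high-fosb libraries. For mitosis genes the median rate was -0.16 per day early and 0.071 late, 15 had positive curvature, and 19 fell without the 14 dpa libraries. Of 76 ribosomal protein genes 1 rose, rplp2 (0.046), a call lost without any one library of 3, 7 or 10 dpa, none fell and 3 departed from a line, with a median slope of -0.0028.

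Set beside the 0 dpa libraries as a description, most slopes ran toward the level before regrowth. Of the 3458 genes with a slope, 3189 (92.2%) were nearer to their 0 dpa mean at 14 than at 3 dpa on the log2 scale, 99.1% of those that fell and 86.9% of those that rose. Among named genes the exceptions included scpp8, col9a2 and npsn, whose 14 dpa libraries lay above all 3 of 0 dpa. Transcripts of agr2 and mxb also passed their 0 dpa levels by 14 dpa, but were farther from them at 3 dpa. The share of nearer genes over all genes tested was not computed. The 92.2% is thus not shown to be particular to genes with a slope.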

How the data were processed

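Values are TPM per gene in a table deposited by the authors, made with Trim Galore 0.6.7, cutadapt 3.5 and Salmon 1.4.0 on danRer11, per the submitters' processing notes. The step from transcripts to genes is not stated there. Reads that match several near-identical genes are assigned by estimation, so levels within the mx, mpeg1, chemokine, hsp70, actinodin and globin families are uncertain. No counts were given, so depth is unknown and no counting interval is printed.

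Log2(TPM + 1) was fitted on day (3.5, 7, 10 and 14) over 11 libraries (limma 3.58.1, run under R 4.3.3), with variances that followed mean expression (trend), and two-sided moderated tests were adjusted by the Benjamini-Hochberg method over 11232 genes. The error of a slope includes any departure from the line. Departure from a line was a moderated F test over the polynomial degrees 2 and 3, and curvature the degree 2 term. The steps were tested on simulated data. Per the design text each library is a separate pool of 10 animals, so p-values measure the spread between pools.

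The 54 gene lists were written by hand, and they and the members were chosen with earlier results of these data known. Of 2015 list entries 1639 were in the table and 1469 were tested, and 85 genes stood on 2 or more lists. Lists are described by counts and medians, with no test of a list. Named genes were the 15 largest rises and 15 largest falls past the threshold (a time mean of at least 5 TPM, means moving one way, no overlap of 3 and 14 dpa, clone names left out), the whole lists of actinotrichia, Scpp, fin length, Erk feedback, Fgf receptor and Fgf ligand genes, at most 4 called members of each other list, the 8 smallest p-values for departure, and fosb. The 8 departures were taken under the same floor of 5 TPM, with clone names left out. The rate per day between 2 times is a difference of mean log2 values divided by days.

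The fit was repeated with quantile normalization or median-of-ratios scaling, with pseudocounts of 0.1 and 5, without a filter or with a floor of 5 TPM on the mean, with library weights, without the variance trend, with a block for the replicate number, with day 3 or the rank of time in place of 3.5, leaving out each library, and without all 3 dpa or all 14 dpa libraries. Leaving out the 3 libraries with the highest fosb was chosen after seeing the data.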

Additional observations from a re-analysis of the deposited data

How the results depend on the processing

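The counts of 1943 risen and 1515 fallen genes stayed within 1.5 times under each alternative with all 4 times: 1935 and 1514 with a pseudocount of 0.1, 1901 and 1499 with 5, 1980 and 1615 with no filter, 1540 and 1122 with a mean of at least 5 TPM, 1825 and 1661 with median-of-ratios scaling, 1732 and 1731 with quantile normalization, and 2563 and 2126 with library weights. Without the 3 dpa libraries they were 652 and 638. Leaving out single libraries gave 1483 to 2045 risen and 1138 to 1530 fallen genes, 245 to 993 departures, 296 to 934 positive and 331 to 872 negative curvatures. Departures numbered 5851 with library weights and 445 without the 3 high-fosb libraries, and curvature was positive for 487 genes with median-of-ratios scaling and for 2370 (negative for 1496) with library weights. The replicate numbers were not taken as pairs in the main fit. After removal of time means, 15 same-numbered pairs correlated at -0.524 to 0.522, with 6 of them over 0.1. Differently numbered pairs were not compared, so pairing is not settled. With the replicate block 1779 genes rose, 1368 fell and 527 departed from a line. Of 253 named genes 212 passed, and 165 of these kept call and direction under every alternative with all 4 times. Without the 3 dpa libraries the slope changed sign for tph1b (7.7e-04), spp1 (-0.12), col8a2 (-0.053), col15a1b (-0.034), cebpd (-0.028), bhlhe41 (-0.023), hbba1 (0.024), foxd3 (-0.027), tyrp1b (-0.026), tyr (-0.032), pmela (-0.062), pnp4a (-0.027), slc2a15b (-0.040), ednrba (-0.037), pcolceb (-0.037), entpd3 (-0.062), icn2 (-0.048), itga11a (-0.19) and matn4 (-0.15), and without the 14 dpa libraries for col2a1b (0.011), and3 (0.29) and scpp8 (-0.060). The cause was not tested. With 2 libraries at 14 dpa, the last time rests on the least data.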

Other observations

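Several lists not described above held slopes in both directions. Of 28 endothelial genes 14 fell, among them ramp2 (-0.22) and esama (-0.14), and 2 rose, the lymphatic genes prox1a (0.17) and lyve1a (0.28). The 14 became 7 to 9 without 3 dpa replicate 2 or 3, 7 dpa replicate 1, 10 dpa replicate 1 or 2, or either 14 dpa library, and lyve1a lost its call without 3 dpa replicate 1 or 2 (adjusted p = 0.063 each). Leaving out all 3 dpa libraries gave 5 falls and 1 rise, beside 5.75% and 5.88% of all genes, with lyve1a at 0.029 (0.88). Leaving out those of 14 dpa gave 3 falls and 4 rises, beside 13.5% and 14.5% of all genes. Of 18 glial and nerve genes 8 fell and 5 rose. The fatty acid binding protein gene fabp7a, of glia, fell from 14.2 to 21.4 TPM at 3 dpa to 0.41 and 1.06 at 14 dpa (-0.309 ± 0.032). The 8 falls became 4 or 5 without one or another 3 dpa library, and the 5 rises became 3 without 3 dpa replicate 1 or 3 and 0 without all 3 dpa libraries.

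Of 12 genes of the Yap and Taz list 5 rose and 1 fell, with ccn2b (0.19) and amotl2b (0.15) among the rises. The rises numbered 3 without any one 3 dpa library or without 14 dpa replicate 1. None rose without all 3 dpa libraries (ccn2b 0.065, adjusted p = 0.35, and amotl2b 0.061, 0.27). Median rates of the list were 0.22, -0.030 and 0.026 per day over the 3 intervals. Of 45 lysosome genes 12 rose and 3 fell, beside 17.3% and 13.5% of all genes, and 7 rose without 14 dpa replicate 2. Of 23 glycolysis genes 7 rose, led by the aldolase gene aldocb (0.16), and 2 fell. The rises numbered 2 to 4 without either 14 dpa library or 3 dpa replicate 2, and there was 1 fall without any one 3 dpa library. In the list of contractile genes the smooth muscle myosin gene myh11a rose (0.180 ± 0.020), from 20.7 to 29.2 TPM to 82.9 and 106, while the skeletal muscle kinase gene ckma fell (-0.196 ± 0.027) and was at most 3.81 TPM in any library of the trend.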
